A study of Mus musculus and Homo sapiens with 81 samples.

Results

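The genes described here are 10 melanosome and pigment genes of the melanocyte lineage, picked by symbol: Tyr, Tyrp1, Dct, Pmel, Mlana, Slc45a2, Slc24a5, Gpr143, Trpm1 and Tspan10. They are 10 of the 23336 genes counted by RNA-seq in the mouse melanoma line B16, and their upper-case symbols are 10 of the 23227 genes counted in each human line. All 10 had enough counts to be tested in B16 and in the human melanoma line MelJuSo, and 2 of them (MLANA and TSPAN10) in the human melanoma line A375. All cells expressed Cas9, the controls included. Ptpn2-null cells carried the guide labelled Ptpn2sg3, and control cells carried a non-targeting guide, Bro3 in B16 and Bro4 in the human lines. Ptpn2 encodes a phosphatase that dampens JAK-STAT signalling downstream of interferon receptors, and the study asked how its deletion changes responses to cytokines. B16 cells of each genotype received IFNg with TNFa, IFNb with IFNg, IFNb with TNFa, IFNg, IFNb, TNFa or vehicle, which was PBS with BSA, for 48 hours, with 3 libraries in each of the 14 groups. IFNg was used at 100 ng/mL, TNFa at 10 ng/mL and IFNb at 1000 U/mL. A375 and MelJuSo cells of each genotype received IFNg or vehicle, with 3 libraries a group except 2 for A375 control vehicle. Each genotype rests on 1 guide in each line, and nothing in the labels says whether the libraries of a group came from separate cultures, so p-values measure the spread between these libraries, which may be technical.

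Melanin is made inside melanosomes, lysosome-related organelles of pigment cells. The enzymes Tyr, Tyrp1 and Dct turn tyrosine into pigment inside the organelle, on a fibrillar matrix built from Pmel, while transporters such as Slc45a2 and Slc24a5 set its ionic content. Most of these genes are transcribed under the factor MITF, which binds the E-box sequences CATGTG and CACGTG, and Mitf itself is a target of SOX10.

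The promoters of 5 members are shown because MITF is known to act through such E-boxes. RefSeq (GRCm38.p6) gave promoters for 6 of the 10 members, 7 in all, since Trpm1 has a second one; Pmel, Mlana, Slc45a2 and Gpr143 had no entry. Each runs from 250 bases before to 50 bases after the annotated start, 5′ to 3′ on the strand of the gene. Capitals mark CATGTG or its reverse complement CACATG, and CACGTG does not occur in the promoters shown. Tyr lies at chr7:87493463-87493762, minus strand, Tyrp1 at chr4:80833963-80834262, plus strand and Dct at chr14:118052197-118052496, minus strand. The first Trpm1 promoter lies at chr7:64153585-64153884, plus strand, and that of Tspan10 at chr11:120442381-120442680, plus strand.
Tyr: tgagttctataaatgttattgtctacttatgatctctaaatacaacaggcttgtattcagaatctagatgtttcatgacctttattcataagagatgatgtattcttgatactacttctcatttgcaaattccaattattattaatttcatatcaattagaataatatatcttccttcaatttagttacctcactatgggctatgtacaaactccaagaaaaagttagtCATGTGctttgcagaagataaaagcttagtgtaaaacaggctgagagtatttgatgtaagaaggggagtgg
Tyrp1: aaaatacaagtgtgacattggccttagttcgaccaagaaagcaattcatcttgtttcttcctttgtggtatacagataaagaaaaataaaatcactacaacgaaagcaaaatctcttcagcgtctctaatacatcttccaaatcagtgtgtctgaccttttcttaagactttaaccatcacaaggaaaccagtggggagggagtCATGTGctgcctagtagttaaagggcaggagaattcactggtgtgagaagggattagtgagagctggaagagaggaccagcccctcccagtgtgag
Dct: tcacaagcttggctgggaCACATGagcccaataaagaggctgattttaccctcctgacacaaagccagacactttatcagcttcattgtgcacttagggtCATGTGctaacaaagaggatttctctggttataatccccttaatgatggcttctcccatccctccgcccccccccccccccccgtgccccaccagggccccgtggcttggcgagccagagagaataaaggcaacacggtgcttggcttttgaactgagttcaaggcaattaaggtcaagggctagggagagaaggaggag
Trpm1: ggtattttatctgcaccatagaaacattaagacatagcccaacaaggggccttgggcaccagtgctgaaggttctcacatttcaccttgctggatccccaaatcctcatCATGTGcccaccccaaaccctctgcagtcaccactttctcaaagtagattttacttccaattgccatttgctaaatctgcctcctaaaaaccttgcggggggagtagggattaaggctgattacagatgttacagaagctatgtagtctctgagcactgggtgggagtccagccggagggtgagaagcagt
Tspan10: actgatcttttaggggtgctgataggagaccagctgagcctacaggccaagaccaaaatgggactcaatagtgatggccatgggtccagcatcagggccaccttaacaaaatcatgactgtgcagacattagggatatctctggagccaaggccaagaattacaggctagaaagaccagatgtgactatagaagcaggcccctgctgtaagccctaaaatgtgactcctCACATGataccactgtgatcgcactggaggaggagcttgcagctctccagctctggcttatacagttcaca

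CATGTG, searched on both strands, occurred in all 7 member promoters, against 14.2% of 32544 promoters of the same length. Its first base sat at -21 from the start in Tyr, -46 in Tyrp1, -232 and -150 in Dct, -13 in Slc24a5, -141 in the first Trpm1 promoter, 37 in the second and -21 in Tspan10. CACGTG, searched on both strands, occurred in 1 of the 7, the second Trpm1 promoter, and in 7.17% of all promoters. The 2 motifs do not overlap in these windows, and a match describes letters only. The members without a promoter entry lie, as genes on the same build, at chr10:128704195-128720238 (Pmel), chr19:29697824-29708634 (Mlana), chr15:11000721-11029233 (Slc45a2) and chrX:152781921-152808646 (Gpr143).

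Libraries held 3498860 to 6432517 counts in B16, 5323668 to 7951961 in A375 and 4191317 to 9216731 in MelJuSo. Levels are given as CPM, counts scaled to library size with TMM factors. Ptpn2 itself stood at 8.23 to 16.4 CPM in the 21 Ptpn2-null B16 libraries and at 44.7 to 61.8 CPM in the 21 control libraries. In MelJuSo it was 5.54 to 13.9 CPM in Ptpn2-null and 14.2 to 17.6 CPM in control libraries, whose ranges do not overlap but lie close under IFNg. There it was 9.86 to 13.9 CPM in Ptpn2-null and 14.2 to 17.6 CPM in control libraries. Under vehicle it was 5.54 to 9.06 CPM in Ptpn2-null and 15.4 to 15.7 CPM in control libraries. The 9 melanocyte lineage markers, which include the members Tyr, Dct, Mlana and Pmel, all had counts in B16 and MelJuSo. Krt5, Krt10, Krt1, Ivl, Ptprc and Itgam had no count in B16, while Krt14, Cd68 and all 5 fibroblast markers had some. In B16, 5 libraries stood apart, with wider deviations from their group mean than the other libraries, which followed transcript length (1 Ptpn2-null library each under IFNb with IFNg, IFNg with TNFa, and TNFa, and 2 control libraries under IFNb with IFNg). In bulk RNA, fewer cells of a type and less RNA per cell cannot be told apart.

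Under vehicle the 10 genes together took 2.91 to 2.92% of all counts in Ptpn2-null and 2.78 to 2.84% in control B16 libraries. Per length, Tyrp1 was highest, at 4235 ± 52.4 RPKM in Ptpn2-null and 3909 ± 38.0 RPKM in control cells (SD, n = 3 each), where RPKM is CPM per kilobase of exon. Pmel followed at 2285 ± 29.9 RPKM in Ptpn2-null and 2107 ± 41.3 RPKM in control cells, then Dct at 1410 ± 13.3 RPKM in Ptpn2-null and at 1374 ± 64.5 RPKM in control cells. Mlana stood at 1052 ± 32.4 RPKM in Ptpn2-null and 1081 ± 31.7 RPKM in control cells, below Dct beyond the spread between libraries. Tspan10 was at 346.7 ± 3.58 RPKM in Ptpn2-null and 343.4 ± 3.37 RPKM in control cells, and Slc45a2 at 256.1 ± 8.27 RPKM in Ptpn2-null and 283.3 ± 5.40 RPKM in control cells. Slc24a5 averaged 116.2 ± 2.78 RPKM in Ptpn2-null and 109.9 ± 3.01 RPKM in control cells, and Tyr 54.7 ± 2.05 RPKM in Ptpn2-null and 54.7 ± 0.868 RPKM in control cells. Gpr143 followed at 30.8 ± 2.50 RPKM in Ptpn2-null and 29.4 ± 3.12 RPKM in control cells, and Trpm1 was lowest at 10.1 ± 0.449 RPKM in Ptpn2-null and 10.5 ± 0.487 RPKM in control cells. Within each genotype, every gap between neighbours in this order exceeded the sum of their SDs.

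Between vehicle-treated Ptpn2-null and control cells, 0 of the 10 genes were called. None passed edgeR's quasi-likelihood test at a Benjamini-Hochberg adjusted p under 0.05, where 3.07% of the 11726 genes tested did. At an unadjusted p under 0.05 there were 2 members (Pmel and Slc45a2), DESeq2 called Pmel, and the log2 differences ran from -0.15 for Slc45a2 to 0.12 for Pmel. Without the 5 libraries that stood apart, 3 members were called (Pmel, Slc45a2 and Tyrp1).

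**Figure D1:**
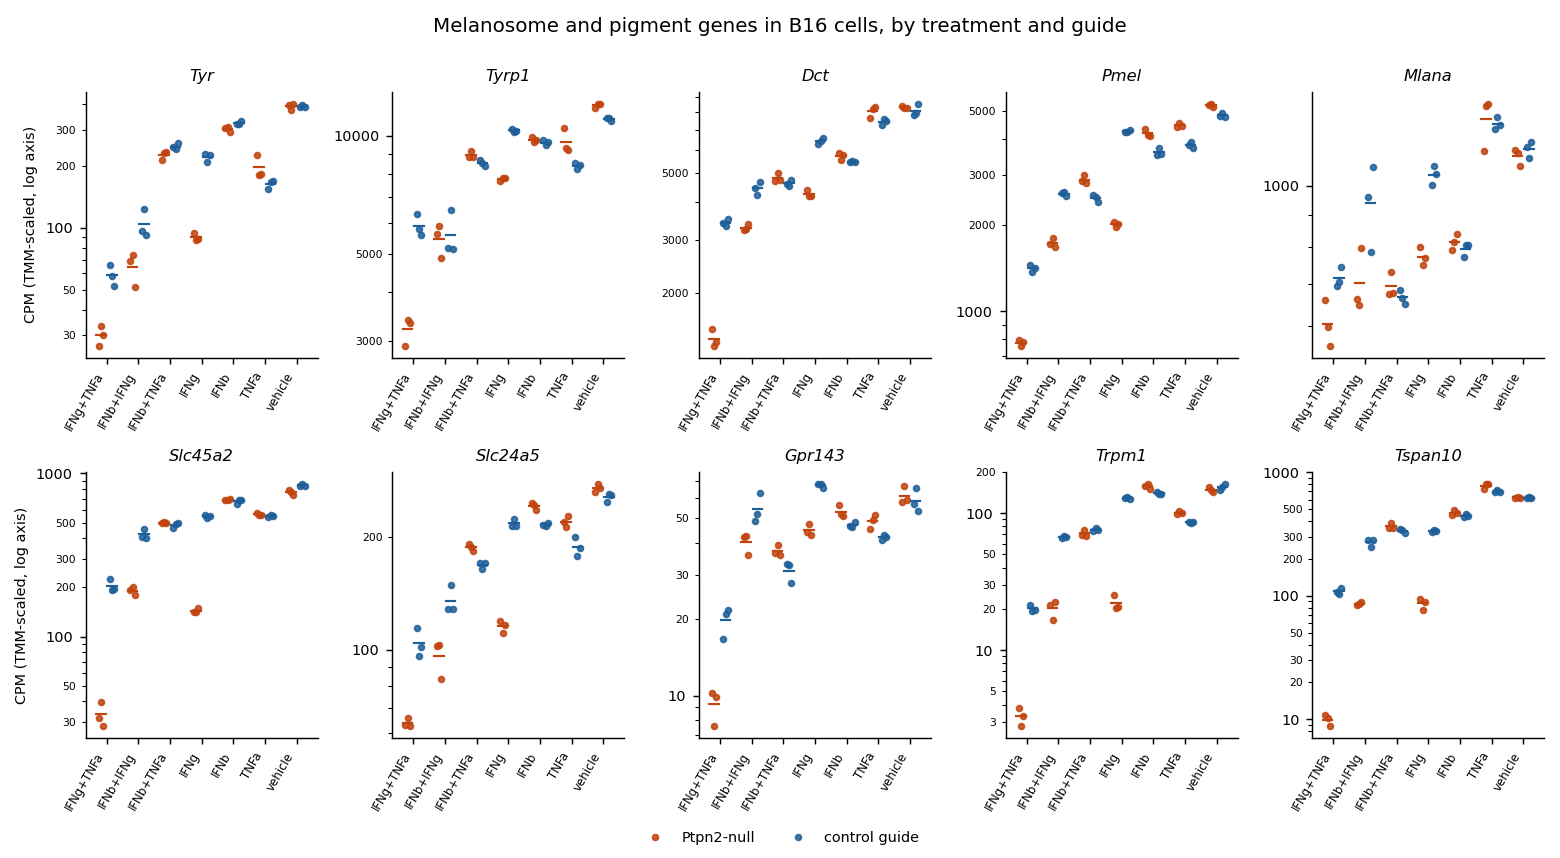
Level of the 10 genes in B16 cells (CPM, log axis) under the 7 treatments, with Ptpn2-null cells left of control cells in each; points are libraries (3 a group) and lines are group means. Under IFNg with TNFa, Tspan10 sat at 8.83 to 10.7 CPM in Ptpn2-null and at 104 to 116 CPM in control libraries.

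In control cells, all 10 genes fell under IFNg with TNFa, and each changed by less on the log2 scale under IFNg, IFNb or TNFa alone. Under IFNg with TNFa the median log2 change from vehicle was -1.66 over the 10, against 0.03 over all genes tested, of which 69.3% (33.3% lower) passed. Trpm1, a cation channel of melanocytes, had 21.5, 19.4 and 19.7 CPM in treated and 148, 154 and 163 CPM in vehicle libraries, a log2 change of -2.94 ± 0.08 (SE, adjusted p = 2.5e-37). Tyr, the rate-limiting enzyme of melanin synthesis, had 66.1, 58.0 and 52.0 CPM in treated and 386, 396 and 385 CPM in vehicle libraries, a log2 change of -2.73 ± 0.09 (SE, adjusted p = 2.3e-28). For all 10 genes every treated library lay below every vehicle library. The share of all genes that did so was not computed for this comparison. Mlana, a small membrane protein needed for PMEL maturation in human melanoma cells, changed least, by -0.68 ± 0.07 (SE, adjusted p = 2e-10).

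IFNg alone lowered 7 members and raised 1 in control cells, with 37.9% (20.0% higher and 17.9% lower) of all genes called and a member median of -0.25 against 0.01. Tspan10, a tetraspanin, changed by -0.88 ± 0.05 (SE, adjusted p = 7.2e-21) and Tyr by -0.81 ± 0.08 (SE, adjusted p = 7e-12), while Tyrp1 (-0.10 ± 0.06) and Mlana (-0.14 ± 0.07) did not pass. The 1 increase was Gpr143, a melanosomal receptor, at 0.21 ± 0.08 (SE, adjusted p = 0.048), and that call was lost without any one of 5 of the 6 libraries compared and under DESeq2. IFNb alone lowered all 10, with 30.5% (13.5% lower) of genes called and a median of -0.31 against 0.02. The span was -0.57 for Dct to -0.15 for Trpm1, whose call was lost when single libraries were left out. Gpr143 lost its call without vehicle replicate 2. Gpr143 and Tyrp1 lost theirs once the dependence of fold change on transcript length was removed. At least 8 members were called under IFNb in every alternative run. TNFa alone lowered 8 and raised Tspan10, with 47.7% (24.7% higher and 23.0% lower) of genes called and a median of -0.42 against 0.04. Tyr fell most under TNFa among the 10, by -1.25 ± 0.08 (SE, adjusted p = 3.5e-16). The Tspan10 increase, 0.17 ± 0.05, changed sign once the dependence of fold change on transcript length was removed. The Dct change under TNFa, -0.123, was then -0.065 and lost its call, as it did without TNFa replicate 1 or vehicle replicate 3. In the TNFa comparison Spearman's rho between the fold change and length was -0.419 over the 90.4% of genes with a length, as a description.

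IFNb with IFNg lowered 9 members in control cells and IFNb with TNFa lowered all 10. Under IFNb with IFNg 65.4% (31.1% lower) of all genes were called, and the member median was -0.95 against 0.04. Under IFNb with TNFa 38.5% (16.9% lower) were called, with a median of -0.81 against 0.03. Tyr showed the widest gap between the pairs, with 96.8, 124 and 92.6 CPM under IFNb with IFNg and 246, 240.4 and 258 CPM under IFNb with TNFa. These comparisons share the same vehicle libraries, so their changes are set side by side only.

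Under IFNg, all 10 genes were lower in Ptpn2-null than in control cells, by 5.89-fold for Trpm1, 3.87-fold for Tspan10 and 3.79-fold for Slc45a2. The share of all genes called was 34.9% (17.2% lower), and the member median was -0.99 against -0.003. In all 10 each Ptpn2-null library lay below each control library, as it did in 24.8% of all genes tested. Among the enzymes, Tyr had 93.8, 86.8 and 88.6 CPM in Ptpn2-null and 228, 209 and 227 CPM in control libraries, a log2 difference of -1.30 ± 0.09 (SE, adjusted p = 2.4e-16). Dct, which converts dopachrome, had 4385, 4189 and 4204 CPM in Ptpn2-null and 6257, 6403 and 6572 CPM in control libraries, a difference of -0.59 ± 0.04 (SE, adjusted p = 4.1e-17). Tyrp1, which oxidises the carboxylated indole intermediate in mice, differed less, by -0.41 ± 0.06 (SE, adjusted p = 4.9e-07). All 3 enzymes were lower in each Ptpn2-null library than in any control library.

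The matrix gene Pmel had 2046, 1976 and 2019 CPM in Ptpn2-null and 4224, 4235 and 4279 CPM in control libraries, a log2 difference of -1.08 ± 0.04 (SE, adjusted p = 6.5e-30). Cdk2 and Dgka overlap Pmel on mouse chromosome 10, and the counting's strand setting is not given in the sources used here, so shared reads are possible. Mlana differed by -0.43 ± 0.07 (SE, adjusted p = 1.1e-05), with 801, 749 and 767 CPM in Ptpn2-null and 1001, 1074 and 1042 CPM in control libraries. Slc45a2, a melanosomal transporter that affects luminal pH, had 141, 142 and 149 CPM in Ptpn2-null and 557, 533 and 548 CPM in control libraries, a difference of -1.92 ± 0.06 (SE, adjusted p = 9.7e-33). The other transporter, the potassium-dependent sodium-calcium exchanger Slc24a5, differed by -0.91 ± 0.06 (SE, adjusted p = 3.3e-18). Its locus overlaps Myef2. Both transporters were lower in each Ptpn2-null library.

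The channel Trpm1 had 25.1, 20.2 and 20.5 CPM in Ptpn2-null and 128, 132 and 126 CPM in control libraries, a log2 difference of -2.56 ± 0.08 (SE, adjusted p = 1.3e-32), and Tspan10 had 94.2, 77.3 and 88.8 CPM in Ptpn2-null and 330.0, 342 and 334 CPM in control libraries, a difference of -1.95 ± 0.06 (SE, adjusted p = 2.5e-32). Gpr143 differed by -0.59 ± 0.09 (SE, adjusted p = 2.5e-07). The change from vehicle itself differed between genotypes for all 10 by the interaction term, with 21.5% (12.4% lower) of all genes called and a median of -1.09 against -0.02. Within Ptpn2-null cells IFNg lowered all 10, with 59.4% (30.4% lower) of genes called and a median of -1.30.

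**Figure D2:**
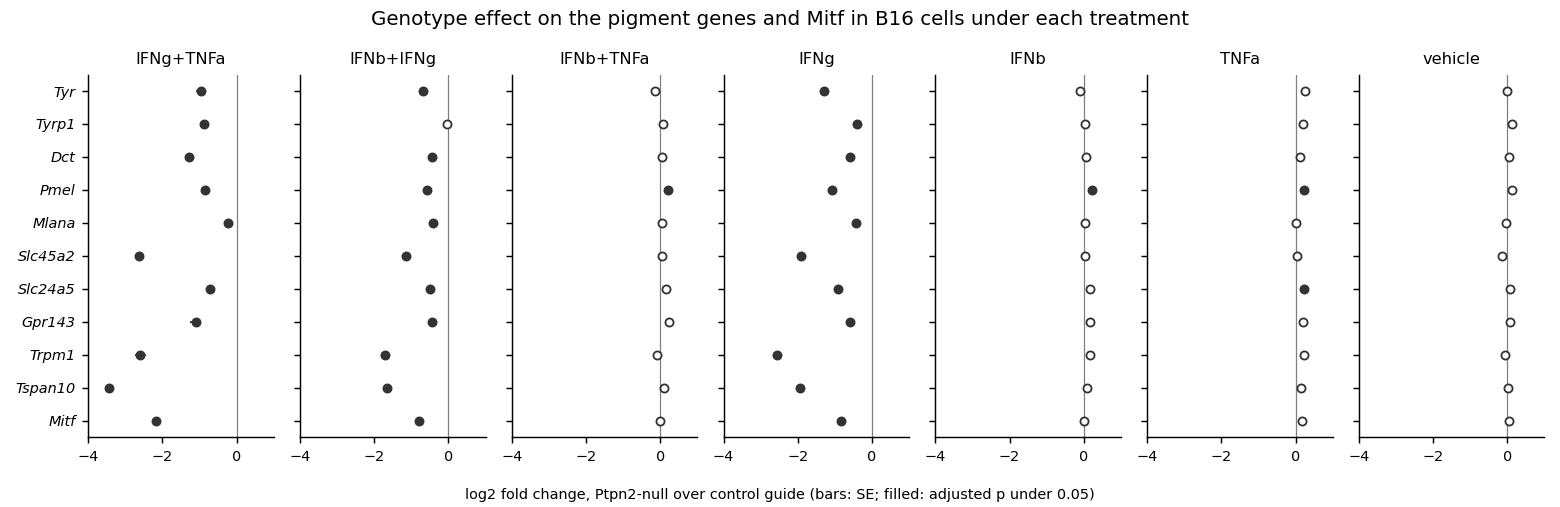
Log2 fold change of Ptpn2-null over control B16 cells for the 10 genes and Mitf in each of the 7 treatments; bars are 1 SE, mostly smaller than the markers, and filled points have an adjusted p under 0.05. All 10 lie below 0 and are filled under IFNg and under IFNg with TNFa, and none is filled under vehicle.

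IFNg with TNFa gave the lowest summed level of this gene set. The 10 genes took 0.552 to 0.574% of counts in Ptpn2-null libraries and 1.15 to 1.22% in control libraries. In control cells the Tyrp1 mean was lower under IFNb with IFNg (5587 against 5898 CPM), and the Mlana mean under IFNb with TNFa (666 against 714 CPM). Under IFNg with TNFa all 10 were lower in Ptpn2-null than in control cells. There 41.0% (20.8% lower) of all genes were called, and the member median was -1.04 against -0.01. In all 10 each Ptpn2-null library lay below each control library, as it did in 22.8% of all genes tested. Tspan10 had 10.7, 10.2 and 8.83 CPM in Ptpn2-null and 107, 104 and 116 CPM in control libraries, 10.9-fold lower, a log2 difference of -3.45 ± 0.09 (SE, adjusted p = 4e-35). Slc45a2 had 31.7, 39.8 and 28.3 CPM in Ptpn2-null and 224, 194 and 196 CPM in control libraries, 6.16-fold lower, with a difference of -2.62 ± 0.07 (SE, adjusted p = 7.1e-35). Trpm1 had 3.76, 2.80 and 3.31 CPM in Ptpn2-null and 21.5, 19.4 and 19.7 CPM in control libraries, 6.06-fold lower, with a difference of -2.60 ± 0.15 (SE, adjusted p = 9.8e-21). The Trpm1 values in Ptpn2-null cells rest on 14 to 21 counts a library.

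The other members, the enzymes among them, were lower as well. Tyr had 26.7, 33.2 and 30.0 CPM in Ptpn2-null and 66.1, 58.0 and 52.0 CPM in control libraries, a log2 difference of -0.97 ± 0.12 (SE, adjusted p = 3.2e-09). Dct had 1510, 1329 and 1373 CPM in Ptpn2-null and 3409, 3343 and 3524 CPM in control libraries, a difference of -1.29 ± 0.04 (SE, adjusted p = 5.8e-31). Tyrp1 differed by -0.88 ± 0.06 (SE, adjusted p = 1.4e-15) and Pmel by -0.86 ± 0.04 (SE, adjusted p = 9.4e-26). Slc24a5 differed by -0.71 ± 0.07 (SE, adjusted p = 1.6e-12) and Gpr143 by -1.10 ± 0.14 (SE, adjusted p = 6.2e-09). Mlana was nearest to equal, with 659, 598 and 559 CPM in Ptpn2-null and 695, 703 and 743 CPM in control libraries, a difference of -0.24 ± 0.07 (SE, adjusted p = 0.009) that missed the threshold without Ptpn2-null replicate 3. From vehicle to this pair, Ptpn2-null cells lost 62.8-fold of Tspan10, 44.7-fold of Trpm1, 23.0-fold of Slc45a2 and 13.0-fold of Tyr, with 76.7% (37.6% lower) of all genes called and a member median of -2.73. The interaction term passed for 9 of the 10, with 26.2% (15.3% lower) of all genes called. Mlana, at -0.20 ± 0.10, did not pass, but did without the 5 libraries that stood apart.

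Proliferation genes were also lower in Ptpn2-null cells under IFNg and under IFNg with TNFa. Of 12 such genes, 0 were higher and 12 lower in Ptpn2-null cells under IFNg, and 0 higher and 11 lower under IFNg with TNFa. Over all genes tested, 17.2% were lower under IFNg and 20.8% under IFNg with TNFa. Mki67 had 25.2, 28.6 and 35.1 CPM in Ptpn2-null and 74.0, 74.0 and 78.0 CPM in control libraries under IFNg with TNFa, and 946, 948 and 939 CPM in Ptpn2-null and 809.7, 814 and 739.8 CPM in control libraries under vehicle. Across IFNb, TNFa and IFNb with TNFa, where pigment genes fell as well, Mki67 had 768 to 932 CPM in Ptpn2-null and 724 to 811 CPM in control libraries. The proliferation list's median log2 difference between genotypes was -0.67 under IFNg and -1.33 under IFNg with TNFa. The 6 leukocyte markers summed to 9.77 to 14.1 CPM in Ptpn2-null and 14.5 to 17.4 CPM in control libraries under that pair, and to 1.12 to 1.88 CPM in Ptpn2-null and 0.993 to 2.22 CPM in control libraries under vehicle. Nearly all of that sum was Cd68, a lysosomal membrane protein, with Ptprc, Itgam and Adgre1 (listed as Emr1) at 0. The 6 keratinocyte markers summed to at most 0.397 CPM and the 5 fibroblast markers to at most 3.07 CPM in any B16 library. The part of these changes in the pigment gene results was not tested.

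With IFNb and IFNg together, 9 of the 10 genes were lower in Ptpn2-null cells, with 38.4% (19.2% lower) of all genes called and a median of -0.53 against -0.01. Trpm1 had 21.5, 16.7 and 22.6 CPM in Ptpn2-null and 66.2, 67.7 and 67.2 CPM in control libraries, a log2 difference of -1.72 ± 0.09 (SE, adjusted p = 7.7e-23), and Tspan10 differed by -1.66 ± 0.06 (SE, adjusted p = 2e-28) and Slc45a2 by -1.15 ± 0.06 (SE, adjusted p = 4e-23). Tyr had 68.8, 73.4 and 51.6 CPM in Ptpn2-null and 96.8, 124 and 92.6 CPM in control libraries, a difference of -0.69 ± 0.10 (SE, adjusted p = 3e-07). Tyrp1, at -0.03 ± 0.06, did not pass. Of the 5 libraries that stood apart, 3 are in this comparison, and leaving them out keeps 1 control library under IFNb with IFNg, which is then assumed to vary like the other groups. On that single library Tyrp1 passed in the other direction, at 0.20, and Gpr143 lost its call, at -0.16, so neither value shows how control libraries vary here. The interaction term passed for 9, again not for Tyrp1, with 15.4% (8.74% lower) of genes called. Of these, Gpr143 did not pass without the 5 libraries, again against 1 control library under this pair, and Mlana did not pass without Ptpn2-null replicate 2.

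Where IFNg was absent, few members were called between genotypes, and those called were higher in Ptpn2-null cells. Under IFNb 1 member was higher in Ptpn2-null cells, Pmel at 0.22 ± 0.04 (SE, adjusted p = 0.00011), with 0.554% (0.384% higher) of all genes called. Under TNFa 2 were higher, Pmel at 0.22 ± 0.04 (SE, adjusted p = 2e-04) and Slc24a5 at 0.23 ± 0.06 (SE, adjusted p = 0.041), with 0.938% (0.264% higher) called; the count was 6 without the 5 libraries that stood apart and as low as 1 with single libraries left out. Under IFNb with TNFa 1 was higher, Pmel at 0.21 ± 0.04 (SE, adjusted p = 0.00023), with 0.597% (0.426% higher) called. The interaction terms called 0 members for IFNb, TNFa and IFNb with TNFa (edgeR called 0.512%, 0.0341% and 0.913% of all genes), and at an unadjusted p under 0.05 there were 3, 4 and 1. From vehicle, Ptpn2-null cells lowered 8 members under IFNb, or 6 to 7 with single libraries left out, with 27.7% (13.0% lower) of genes called, and all 10 under IFNb with TNFa, with 38.4% (17.7% lower) called. TNFa lowered 7 and raised 2 in these cells, Mlana and Tspan10, with 43.5% (21.1% higher and 22.4% lower) called. The Mlana increase, 0.19 ± 0.07, changed sign once the length trend was removed, and its call was lost without any one of 5 of the 6 libraries compared. The Tspan10 increase, 0.32 ± 0.05, was 0.08 and did not pass once that trend was removed. IFNb with IFNg lowered all 10 in Ptpn2-null cells, with 67.5% (33.4% lower) called and a median of -1.54.

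IFNg and TNFa together moved every member further down than the sum of their single log2 changes, in both genotypes. The departure from the sum was negative for all 10 in Ptpn2-null cells, with a median of -1.35 and 27.4% (15.8% lower) of all genes called, and for all 10 in control cells, with a median of -0.79 and 25.6% (15.1% lower) called. Over all genes the median departure was -0.01 in Ptpn2-null and -0.01 in control cells. For Tspan10 it was -3.44 ± 0.11 (SE, adjusted p = 1.3e-31) in Ptpn2-null and -1.80 ± 0.08 (SE, adjusted p = 1.5e-25) in control cells. For Gpr143 it was -1.94 ± 0.16 (SE, adjusted p = 5.1e-15) in Ptpn2-null and -1.28 ± 0.14 (SE, adjusted p = 8.3e-11) in control cells. Tyr departed by -0.60 ± 0.14 in Ptpn2-null and -0.67 ± 0.12 in control cells. Whether the departures differ between genotypes was not tested.

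The departures under the other pairs depended in part on the length trend. IFNb with IFNg gave 4 positive departures and no negative one in Ptpn2-null cells, with 22.6% (8.54% higher) of all genes called. In control cells it gave 2 positive and 5 negative ones, with 46.8% (20.9% higher and 25.9% lower) called. Both positive ones changed sign once the length trend was removed, Mlana to -0.23 from 0.38 ± 0.10 and Tspan10 to -0.22 from 0.17 ± 0.07, and the Tspan10 call was also lost with the replicate block. IFNb with TNFa gave 1 positive and 5 negative in Ptpn2-null cells, with 22.8% (14.2% higher and 8.59% lower) called, and 2 positive and 3 negative in control cells, with 26.3% (14.8% higher and 11.5% lower) called. Tyr was above the sum under IFNb with TNFa, by 0.58 ± 0.11 (SE, adjusted p = 0.00024) in Ptpn2-null and 0.87 ± 0.11 (SE, adjusted p = 7.9e-07) in control cells. Over genes these departures followed transcript length. For IFNb with IFNg rho was -0.27 in Ptpn2-null and -0.475 in control cells, and for IFNb with TNFa 0.433 and 0.407. Tyr is longer than 75.8% of the tested genes with a length. Its call in control cells under IFNb with TNFa was kept once the length trend was removed. With the trend removed, Mlana and Pmel lost their calls there in both genotypes, while Dct, Slc24a5, Slc45a2 and Trpm1 gained calls in control cells. For IFNg with TNFa rho was -0.0377 in Ptpn2-null and -0.0215 in control cells.

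**Figure D3:**
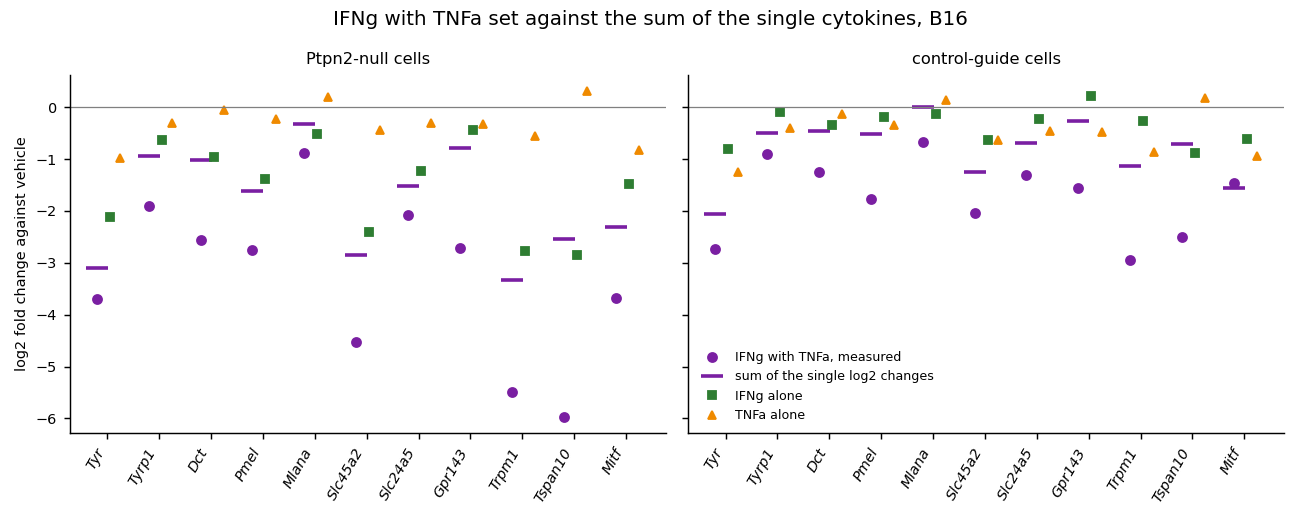
Log2 fold change against vehicle (vertical axis) of the 10 genes and Mitf in B16 cells, with Ptpn2-null cells left and control cells right; circles are the measured change under IFNg with TNFa, dashes the sum of the changes under each cytokine alone, squares IFNg alone and triangles TNFa alone. The circle lies below the dash for all 10 genes in both panels, and for Mitf in Ptpn2-null cells only.

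Mitf, the lineage factor known to drive these genes, was lower too, while Sox10 was above its vehicle level under IFNg with TNFa. Under IFNg with TNFa Mitf had 51.9, 55.2 and 63.2 CPM in Ptpn2-null and 273, 245 and 252 CPM in control libraries, 4.51-fold lower, a log2 difference of -2.17 ± 0.07 (SE, adjusted p = 1.1e-32). Under IFNg it had 256, 250.2 and 273 CPM in Ptpn2-null and 469, 444 and 467 CPM in control libraries, a difference of -0.82 ± 0.06 (SE, adjusted p = 5.9e-18). Vehicle libraries held 743, 689.5 and 756 CPM in Ptpn2-null and 708, 691 and 709 CPM in control cells, so treated libraries lay below all vehicle libraries in both genotypes. Sox10 had 849, 795 and 839 CPM in Ptpn2-null and 847, 920.5 and 931 CPM in control libraries under IFNg with TNFa, above vehicle in both genotypes, by 0.35 ± 0.05 (SE, adjusted p = 6e-09) in Ptpn2-null and 0.45 ± 0.05 (SE, adjusted p = 5.9e-12) in control cells. Between genotypes it differed by -0.12 ± 0.05 (SE, adjusted p = 0.038), a call lost without any one of 5 of the 6 libraries. The departure of Mitf from the sum of the single changes was -1.37 ± 0.09 (SE, adjusted p = 2.2e-19) in Ptpn2-null cells and 0.10 ± 0.08, not called, in control cells.

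Other lists of pigment lineage genes held calls in both directions. They are read against the 20.3% of all genes higher and 20.8% lower under IFNg with TNFa, and the 17.7% higher and 17.2% lower under IFNg. Of 30 further melanosome biogenesis and transport genes, 6 were higher and 13 lower in Ptpn2-null cells under IFNg with TNFa, and 4 higher and 14 lower under IFNg, with medians of -0.13 and -0.14. Mlph and Rab27a, which tether melanosomes to the actin motor, differed by -2.77 ± 0.06 (SE, adjusted p = 2.9e-40) and -1.55 ± 0.09 (SE, adjusted p = 6.7e-22) under IFNg with TNFa, and by -1.71 ± 0.05 and -1.52 ± 0.06 under IFNg. Oca2, a melanosomal anion channel, differed by -1.39 ± 0.23 (SE, adjusted p = 1.4e-06) under the pair, while Lyst, a regulator of lysosome size, was higher at 0.99 ± 0.19 (SE, adjusted p = 9.7e-05). Of 10 tested MITF targets outside pigment synthesis, 0 were higher and 6 lower under IFNg with TNFa, with Fam174b at -1.08 ± 0.16, Cdk2 at -1.07 ± 0.06 and Bcl2 at -0.91 ± 0.10. Under IFNg 2 were higher and 6 lower, and the medians were -0.65 under the pair and -0.29 under IFNg. Rab27a counts both in this list and in the melanosome list before it. Of 12 tested lineage regulators 2 were higher and 4 lower under the pair, with Snai2 at 1.26 ± 0.15 (SE, adjusted p = 1.4e-09) and Pax3 at -0.50 ± 0.06 (SE, adjusted p = 3.6e-10), and 2 higher and 2 lower under IFNg, with medians of -0.10 and -0.04. That is 6 and 4 of 12 called in all, against 41.0% and 34.9% of all genes.

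Among 22 lysosome genes, 11 were higher and 2 lower in Ptpn2-null cells under IFNg with TNFa, and 10 higher and 1 lower under IFNg, with medians of 0.12 and 0.14. Npc2, a lysosomal cholesterol carrier, differed by 1.03 ± 0.06 (SE, adjusted p = 1.8e-21) and Psap, the saposin precursor, by 0.75 ± 0.04 (SE, adjusted p = 1.1e-21) under the pair. Of 8 tested genes of the undifferentiated melanoma state, 4 were higher and 1 lower in each comparison, with medians of 0.33 under the pair and 0.55 under IFNg. Axl, a receptor kinase, had 717, 791 and 792 CPM in Ptpn2-null and 245, 265 and 249 CPM in control libraries, a difference of 1.60 ± 0.06 (SE, adjusted p = 2.1e-28), with at most 10.1 CPM in any vehicle library. Ngfr had 117, 111 and 126 CPM in Ptpn2-null and 21.5, 25.1 and 27.1 CPM in control libraries, a difference of 2.26 ± 0.10 (SE, adjusted p = 9.4e-25), and 3 counts in all 6 vehicle libraries together. Sox9 was lower, at -1.43 ± 0.24 (SE, adjusted p = 1.6e-06). Of 10 interferon and NF-kB response genes, 8 were higher and 1 lower under the pair, with the feedback inhibitor Socs1 at 1.51 ± 0.09 (SE, adjusted p = 1.4e-20). In that list 7 were higher and 1 lower under IFNg, and the medians were 0.41 under the pair and 0.44 under IFNg.

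**Figure D4:**
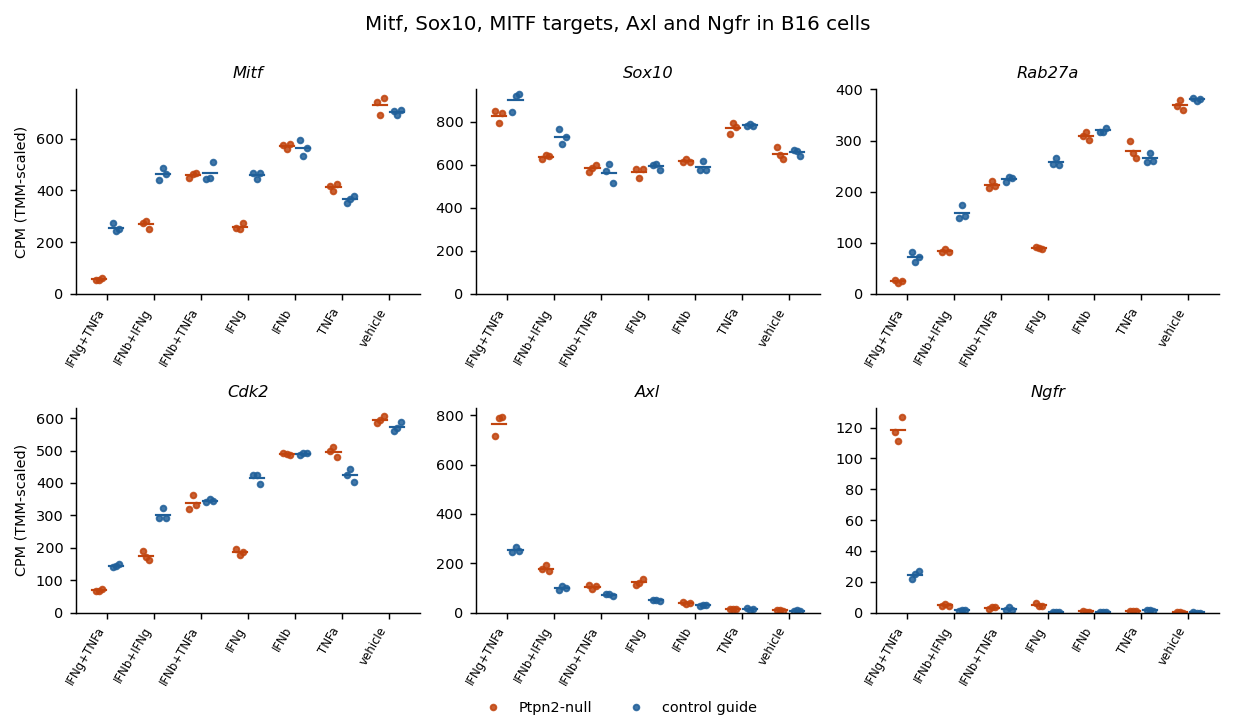
Level of Mitf, Sox10, Rab27a, Cdk2, Axl and Ngfr in B16 cells (CPM, linear axis from 0) under the 7 treatments, with Ptpn2-null cells left of control cells; points are libraries and lines are means. Mitf, Rab27a and Cdk2 are lowest, and Axl and Ngfr highest, in Ptpn2-null cells under IFNg with TNFa.

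Over the 14 B16 group means, the profiles closest to the mean standardised profile of the 10 genes were those of Idh2 (Pearson's r = 0.990), Cdk2 (0.990), Tubd1 (0.986), Rab27a (0.986) and Macrod2 (0.984), followed by Cdkn2aipnl, Fkbp4, Bhlhe40, Dock3 and Megf6 (0.980 to 0.983). They come from 11022 candidates, the groups share vehicle and cytokine effects, and Cdk2 overlaps Pmel. Among the members themselves, r with the mean of the other 9 was highest for Pmel (0.991) and lowest for Mlana (0.701).

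In MelJuSo, a human melanoma line, IFNg lowered all 10 genes in Ptpn2-null cells and 1 in control cells. In Ptpn2-null cells 54.6% (27.4% lower) of the 12271 genes tested were called, and the member median was -0.70 against 0.01. In control cells the 1 decrease was TYRP1, at -0.28 ± 0.04 (SE, adjusted p = 1.1e-09), with 11.5% (5.18% lower) called. Under IFNg 9 of the 10 were lower in Ptpn2-null than in control cells, with 51.2% (25.7% lower) of genes called and a median of -0.46 against 0.01. In 7 of the 10 each Ptpn2-null library lay below each control library, as it did in 27.5% of all genes tested.

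DCT had 54.0, 46.4 and 49.0 CPM in Ptpn2-null and 187, 179 and 182 CPM in control libraries under IFNg, 3.67-fold lower, a log2 difference of -1.88 ± 0.05 (SE, adjusted p = 2e-57). Under vehicle it had 173, 174 and 169 CPM in Ptpn2-null and 200.5, 201 and 187 CPM in control libraries, and was the 1 member called there, at -0.20 ± 0.04 (SE, adjusted p = 0.0031), with 1.64% (0.554% lower) of genes called. That call was lost without Ptpn2-null vehicle replicate 3. SLC45A2 had 4.59, 3.97 and 4.63 CPM in Ptpn2-null and 9.73, 10.3 and 9.91 CPM in control libraries under IFNg, a difference of -1.19 ± 0.18 (SE, adjusted p = 1.2e-08). In DCT and SLC45A2 each Ptpn2-null library lay below each control library.

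GPR143 had 147, 140.4 and 139.7 CPM in Ptpn2-null and 217, 218 and 213 CPM in control libraries, a log2 difference of -0.60 ± 0.04 (SE, adjusted p = 8e-25). TYRP1 had 235, 239.7 and 226 CPM in Ptpn2-null and 322, 293 and 315 CPM in control libraries, a difference of -0.40 ± 0.04 (SE, adjusted p = 6.6e-17). PMEL differed by -0.27 ± 0.03 (SE, adjusted p = 2.7e-13), MLANA by -0.51 ± 0.10 (SE, adjusted p = 6.4e-06) and TRPM1 by -0.57 ± 0.15 (SE, adjusted p = 0.00095). SLC24A5 differed by -0.37 ± 0.13 (SE, adjusted p = 0.011), a call lost without control replicate 3 or without Ptpn2-null replicate 3. TYR, which differed by -0.10 ± 0.03 (SE, adjusted p = 0.016), lost its call under DESeq2 and without Ptpn2-null replicate 2 or replicate 3, and its change from vehicle in Ptpn2-null cells did too. TSPAN10, at -0.15 ± 0.33 on 1.44 to 2.24 CPM, did not pass. The response to IFNg differed between genotypes for 9 of the 10 by the interaction term, with 35.5% (18.8% lower) of genes called and TSPAN10 at -0.66 ± 0.41 the exception.

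MITF had 495, 422 and 452 CPM in Ptpn2-null and 1054, 951 and 1000 CPM in control libraries under IFNg, a log2 difference of -1.13 ± 0.04 (SE, adjusted p = 1.6e-36). It changed from vehicle by -0.98 ± 0.04 (SE, adjusted p = 4.3e-33) in Ptpn2-null and by 0.16 ± 0.04 (SE, adjusted p = 0.00083) in control cells. SOX10 differed by -0.15 ± 0.03 (SE, adjusted p = 6e-05) under IFNg. Of 28 tested melanosome genes outside the 10, 5 were higher and 11 lower in Ptpn2-null cells, with OCA2 at -0.82 ± 0.07 and RAB27A at -0.67 ± 0.05. In that comparison 25.5% of all genes were higher and 25.7% lower. MITF targets outside pigment synthesis, RAB27A again among them, split 1 higher and 7 lower of 12, with PPARGC1A, a mitochondrial coactivator, at -1.35 ± 0.05. Lineage regulators split 6 higher and 4 lower of 15, lysosome genes 8 and 10 of 22, interferon and NF-kB response genes 7 and 1 of 10, and undifferentiated state genes 8 and 0 of 15, with AXL at 1.03 ± 0.25. All 12 proliferation genes were lower, with a median of -0.64. In MelJuSo libraries leukocyte markers summed to 47.5 to 67.3 CPM, keratinocyte markers to 18.1 to 25.3 CPM and fibroblast markers to 22.7 to 65.6 CPM, the last mostly LUM. LUM, a matrix proteoglycan, stood at 21.1 to 29.2 CPM in Ptpn2-null and 49.4 to 52.9 CPM in control libraries under IFNg. CD3E, KRT5, IVL and THY1 had no count. The part of the proliferation genes and of LUM in the result was not tested.

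**Figure D5:**
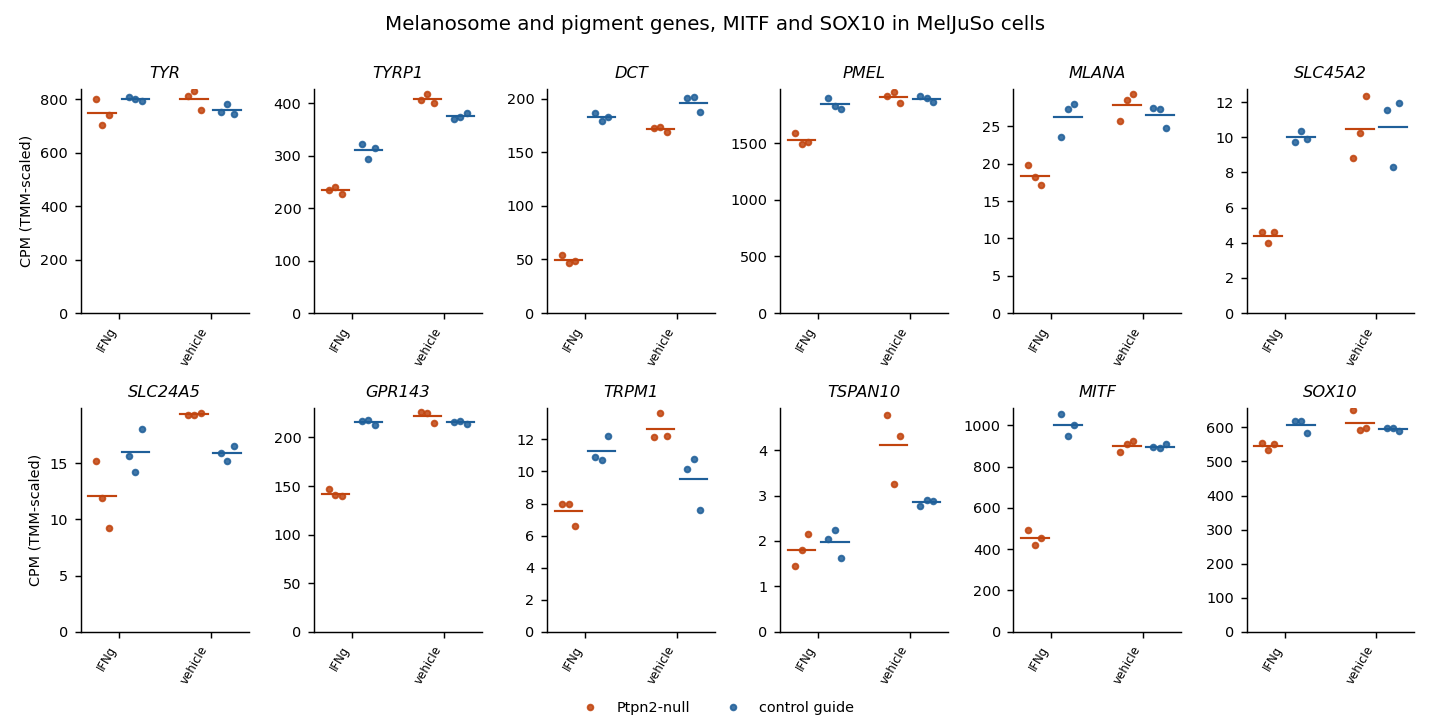
Level of the 10 genes, MITF and SOX10 in MelJuSo cells (CPM, linear axis from 0) under IFNg and vehicle, with Ptpn2-null cells left of control cells; points are libraries (3 a group) and lines are means. DCT sits at 46.4 to 54.0 CPM in Ptpn2-null and 179 to 187 CPM in control libraries under IFNg.

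A375 barely expressed the pigment genes, which together took at most 0.00127% of counts. PTPN2 went against the labels in its vehicle libraries, with 24.1 to 25.1 CPM in those labelled Ptpn2-null and 11.9 to 12.1 CPM in those labelled control, so genotypes are named as labelled. TSPAN10 had 7.05, 4.93 and 4.84 CPM in labelled Ptpn2-null and 2.93, 1.66 and 2.52 CPM in labelled control libraries under IFNg, a log2 difference of 1.24 ± 0.25 (SE, adjusted p = 6.4e-06) with 50.8% (25.8% higher) of genes called. Averaged over labelled genotypes, IFNg changed TSPAN10 by -0.58 ± 0.17 (SE, adjusted p = 0.0013) and MLANA by 0.08 ± 0.31, not called, with 72.2% (35.6% lower) of the 13410 genes tested called. Under vehicle 0 of the 2 passed edgeR's test, against 21.1% of genes, 1 was under an unadjusted p of 0.05, and DESeq2 called 0.

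MITF was measurable in A375 all the same. It had 36.4, 40.2 and 38.0 CPM in labelled Ptpn2-null and 66.8, 62.4 and 70.5 CPM in labelled control libraries under IFNg, a log2 difference of -0.80 ± 0.07 (SE, adjusted p = 2.9e-23). Averaged over labelled genotypes, IFNg changed MITF by -1.78 ± 0.04 (SE, adjusted p = 6e-106) and SOX10 by 0.57 ± 0.04 (SE, adjusted p = 1.8e-31). Of all genes tested, 36.6% rose and 35.6% fell under IFNg. Of 29 tested melanosome genes 20 rose and 4 fell, and all 12 proliferation genes fell. Of 15 regulators 9 rose and 1 fell, a total of calls no higher than the 72.2% over all genes. In the lung line A549 and the colon line HT29, TYR had 0 counts in all 8 libraries of each, which allows, over the 8 together, at most 0.0536 CPM in A549 and 0.0480 CPM in HT29, covering counting error only. The cell type label of 1 HT29 control library under IFNg names the lung line's tissue, and no comparison rests on it.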

How the data were processed

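RNA was captured as mRNA, made into directional libraries and sequenced in paired-end mode, per the labels' protocols. The authors deposited whole-number counts of reads for each gene, unnormalized, in 1 table per cell line. The submitters' processing notes name bcl2fastq 2.17.1.14, Trimmomatic 0.33, Bowtie2 2.2.4, HTSeq 0.6.1p1, DESeq2 and the builds mm10 and hg19; which annotation and strand setting the counting used is not given in the sources used here.

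Counts of each line were fitted with edgeR 4.0.16 in R 4.3.3 (TMM scaling, genes kept by filterByExpr, 1 mean per group, robust quasi-likelihood test), and p-values were adjusted by Benjamini-Hochberg over all genes tested, with a call under 0.05. SEs are the log2 change over the square root of F. Interaction terms compared responses between genotypes, and a departure from additivity is the change under a pair minus the sum of both single changes. Comparisons within a genotype share vehicle libraries. Lengths for RPKM are exon unions from GENCODE M21 (GRCm38). A549 and HT29 gave levels only.

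The members and gene lists were chosen with earlier results of these data known. Named genes are the 10 members, Mitf, Sox10, Ptpn2, up to 4 called genes of largest change per list and comparison, and the 10 most similar profiles; Mki67 was also named. In simulated data 174 of 200 changed genes were recovered for B16 under IFNg (97% at 2-fold, 77% at 1.5-fold, 8 false calls among 11462 genes). Samples with the same replicate number mostly did not deviate together. Correlations of their deviations ran from -0.368 to 0.463 in B16, and in no comparison were all pairs above 0.1. The B16 exceptions above 0.1 were replicates 2 (0.415) and 3 (0.463) between genotypes under IFNb with IFNg, where replicate 1 had -0.108. Alternatives were DESeq2 1.42.0, its size factors, no filter, only the compared groups, a replicate block, removal of the trend with transcript length, and leaving out each library; leaving out the 5 B16 libraries that stood apart was chosen after seeing the data. Some listed genes are not reported here.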

Additional observations from a re-analysis of the deposited data

Results flagged for a closer look

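In B16, the response to IFNg differed between Ptpn2-null and control cells for 10 of the 10 pigment genes by the interaction term, each with a negative term. For Gpr143 the log2 change from vehicle was -0.45 in Ptpn2-null cells and 0.21 in control cells. The call of that control increase was lost under DESeq2 and in most runs that left out a single library. The response to IFNg with TNFa differed for 9, all but Mlana. The response to IFNb with IFNg differed for 9, all but Tyrp1. In MelJuSo, the response to IFNg differed for 9, all but TSPAN10. They are listed because the same stimulus had different effects in the 2 genotypes.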

How the results depend on the processing

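Of 5731 recomputed values for single genes, 5524 kept their side of the threshold, 124 lost the call, 72 gained one and 11 changed sign with a call before or after. Sign changes between values without a call were not counted apart from the 5524. With the length trend removed, with or without the replicate block, Mlana changed sign under TNFa in control (-0.164) and Ptpn2-null cells (-0.126), and Tspan10 under TNFa in control cells (-0.042). Under the same settings the departure of IFNb with IFNg in control cells became -0.231 for Mlana and -0.223 (-0.222 with the block) for Tspan10. Without the 5 libraries that stood apart, Tyrp1 under IFNb with IFNg was 0.195 between genotypes, a value that rests on 1 control library assumed to vary like the other groups. The cause was not tested.

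In B16 between genotypes under IFNg and under IFNg with TNFa, 9 or 10 members were called in every alternative run, and 10 without the 5 libraries. In MelJuSo under IFNg 9 were called, against 7 to 9 with single libraries left out and 8 to 9 in the other alternatives. The following counts moved by over 1.5 times. Under TNFa 2 members were called, against 4 with the length trend removed (also with the replicate block) or with no filter, 6 without the 5 libraries, and 1 to 2 when single libraries were left out, with 1 lacking control replicate 2 or 3 or any Ptpn2-null replicate. Under vehicle 0 were called, against 1 with DESeq2 or the length trend removed (also with the block), and 3 with only the compared groups or without the 5 libraries. Under IFNb 1 was called, against 2 with only the compared groups. The response to IFNb differed for 0, against 1 with the length trend removed (also with the block) and 3 with only the compared groups, and that to IFNb with TNFa for 0, against 1 with only the compared groups or without the 5 libraries. Departures for IFNb with TNFa in control cells numbered 3 to 5 with single libraries left out, with 3 lacking control IFNb replicate 2. Those for IFNb with IFNg in Ptpn2-null cells numbered 2 to 5, with 2 lacking Ptpn2-null IFNb replicate 2, IFNb with IFNg replicate 3, or vehicle replicate 1 or 2. In MelJuSo under vehicle 1 was called, against 2 with only the compared groups or the replicate block, and 0 to 1 with single libraries left out. In A375 the labelled genotypes differed under IFNg in 1 member, against 2 with no filter, and under vehicle in 0, against 1 with the replicate block.

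Replicate numbers did not pair the samples, apart from replicates 2 and 3 between B16 genotypes under IFNb with IFNg. The replicate block alone changed 3 single-gene calls of 366. Trpm1, Gpr143 and Tspan10 rest on as few as 14, 38 and 48 counts a B16 library, which limits their precision in Ptpn2-null cells under IFNg with TNFa.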
